A study of Drosophila melanogaster with 64 samples.

Results

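The genes described here are 8 molecular chaperones of *Drosophila melanogaster*: the heat-inducible *Hsp70Aa*, *Hsp70Ab*, *Hsp70Ba*, *Hsp70Bb* and *Hsp70Bc*, the related inducible *Hsp68*, *Hsp83*, which encodes the cytosolic Hsp90, and *Hsc70-4*, the constitutive cytosolic Hsp70. They were taken by gene name, with earlier results of these data already known, and all 8 were found by FlyBase identifier among the 17752 genes of the count table. Hsp70 proteins bind exposed hydrophobic stretches of unfolded or newly made polypeptides and release them in cycles of ATP hydrolysis, assisted by J-domain proteins and nucleotide exchange factors. Hsp90 acts later, on nearly folded clients such as kinases and steroid receptors, together with its own set of co-chaperones. In flies the inducible *Hsp70* copies are almost silent in unstressed cells and are transcribed within minutes of heat or other protein-damaging stress through the heat shock factor, whereas *Hsc70-4* and *Hsp83* are expressed throughout the body in the absence of stress.

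RNA was sequenced from females of the LHM wild-type strain that were 3 to 8 days old, either unmated or collected 6 or 24 h after mating, and all groups shared this strain and age range. The lower female reproductive tract (FRT) was dissected into the bursa (4 unmated, 4 at 6 h and 4 at 24 h), oviduct (3, 2 and 3), seminal receptacle (3, 4 and 3), spermathecae (4, 4 and 4), parovaria (4, 3 and 4) and the fat body that surrounds the glands (4, 3 and 2), and 2 libraries came from unmated whole females from which the lower FRT, but not the ovaries, had been removed. Each library was a pool of tissue from many etherized females, and the labels do not say whether pools of a group came from separate rearings, so the p-values measure only the spread between pools. In pooled tissue, fewer cells of a type and less RNA per cell cannot be told apart. The 64 libraries held between 12177864 and 26860149 counts (median 24545411.5) and came from 2 sequencing runs (26 and 38 libraries). Dissection markers followed the labels for fat body (45730 to 97260 summed CPM in unmated fat body, at most 30860 in the unmated FRT tissues) and spermathecae (50810 to 59950 against at most 3182), and the whole female libraries held germline (577 to 1392 CPM) and eggshell (8935 to 15230 CPM) transcripts.

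Levels are counts scaled to library size (CPM) with TMM factors (trimmed mean of M-values, which correct for libraries dominated by a few transcripts), called normalized CPM below, in the order of run 1 and then run 2. A gene was called changed after mating when its Bonferroni-adjusted p in edgeR's quasi-likelihood test of that tissue was at most 0.01. Genes entered the test of a tissue if 2 or more libraries of a time point held over 2 CPM. All 8 chaperone genes met this rule in the 5 FRT tissues, and 5 of the 8 met it in the fat body, where *Hsp70Ba*, *Hsp70Bb* and *Hsp70Bc* did not and were left untested after mating.

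The *Hsp70* copies lie in 2 clusters on chromosome arm 3R of the Release 6 assembly. *Hsp70Aa* (FBgn0013275) lies at 11954163 to 11956544 on the minus strand and *Hsp70Ab* (FBgn0013276) at 11958535 to 11960909 on the plus strand. The second cluster holds *Hsp70Ba* (FBgn0013277, 12465453 to 12467776, minus strand), *Hsp70Bb* (FBgn0013278, 12505793 to 12508139, plus strand) and *Hsp70Bc* (FBgn0013279, 12509076 to 12511461, plus strand), with a further near-identical copy, *Hsp70Bbb* (FBgn0051354, 12502510 to 12504856, plus strand), between the first of these and *Hsp70Bb*. *Hsp68* (FBgn0001230) lies apart on 3R at 24055080 to 24057310 on the minus strand. These genes each consist of a single exon. *Hsp83* (FBgn0001233, arm 3L, 3192969 to 3197059, plus strand) has 2 exon blocks that sum to 2960 bases, and *Hsc70-4* (FBgn0266599, 3R, 15242687 to 15246614, plus strand) has 5 that sum to 2716 bases. Genes on the opposite strand overlap the exons of *Hsp70Ab* by 27 bases, of *Hsp68* by 26 and of *Hsp83* by 15, so their reads cannot be told apart there if strand was not used in counting.

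The near-identical copies rose and fell together and cannot be treated as independent measurements. The ratio of *Hsp70Aa* to *Hsp70Ab* counts stayed between 0.90 and 1.04 (median 0.98) over the 64 libraries. The highest of the 4 *Hsp70B* copies exceeded the lowest by 1.03 to 1.44 times (median 1.27) in the 55 libraries with at least 200 counts over the 6 copies. Across libraries the 15 pairs of copies had correlations of log levels between 0.976 and 1.00, a description over 64 libraries that share reads between copies. Reads that fit more than 1 copy can be split among them by the counting, so single-copy values are uncertain, and the sum over the 6 copies (called the *Hsp70* sum) is used for levels below. That sum ranged from 36 counts in a fat body library at 24 h to 18220 in a spermathecae library at 6 h (median 999.5). *Hsp70Aa* and *Hsp70Ab* together made up 47.6 to 78.1% of it (median 59.3%), with 73.3 and 76.0% in the 2 whole female libraries and 47.9 to 63.6% in the 4 unmated bursa libraries.

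**Figure D1:**
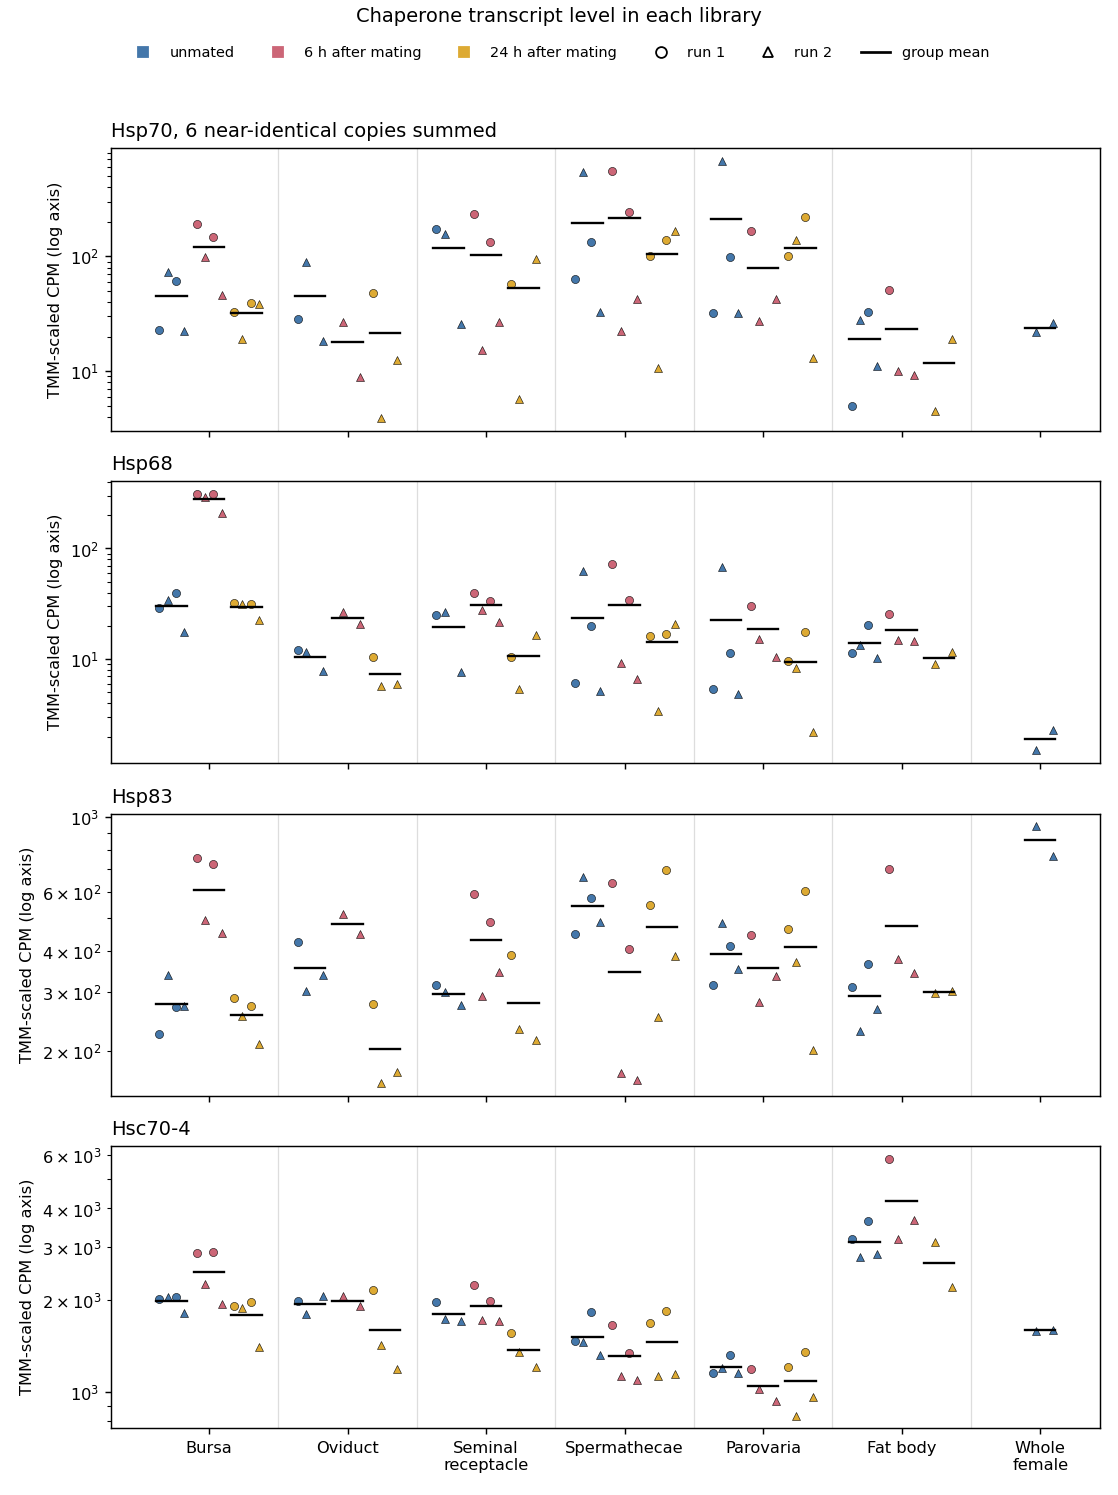
Normalized CPM of the *Hsp70* sum, *Hsp68*, *Hsp83* and *Hsc70-4* on a log axis for every library of the 6 tissues and the whole female, with time after mating in color, sequencing run by marker shape and the group mean as a bar. *Hsp68* in the bursa at 6 h (208 to 312) stands above every other group, while the *Hsp70* sum ranges from 31.9 to 675 among the unmated parovaria libraries alone.

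*Hsp68* was the chaperone gene of this set with a called change after mating, and the call was in the bursa, the muscular chamber that receives the ejaculate. Unmated bursa libraries held 28.8, 39.4, 34.4 and 17.7 normalized CPM of *Hsp68*. At 6 h after mating the 4 libraries held 312, 311, 292 and 208, from 3603 to 12910 counts each. At 24 h they held 32.4, 31.3, 31.4 and 22.7. Every 6 h library lay above every unmated and every 24 h library, and the unmated and 24 h ranges overlapped. The group means were 30.1 ± 9.31 (SD, n = 4) unmated, 280.8 ± 49.5 (n = 4) at 6 h and 29.5 ± 4.54 (n = 4) at 24 h.

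The rise of *Hsp68* in the bursa at 6 h was 3.22 ± 0.25 on the log2 scale, or 9.31-fold (edgeR quasi-likelihood test, Bonferroni-adjusted p = 0.00018). The return from 6 to 24 h was -3.27 ± 0.25 (edgeR, Bonferroni-adjusted p = 0.00016), and the 24 h level differed from the unmated level by -0.05 ± 0.23 (edgeR, Benjamini-Hochberg-adjusted p = 0.959). Within sequencing run 1 the 6 h mean was 9.14 times the unmated mean, and within run 2 it was 9.60 times. On CPM without TMM factors the means were 40.1 unmated and 333 at 6 h. On that scale the run 2 libraries held 40.5 and 24.9 unmated and 196.5 and 149.4 at 6 h, a smaller fold in run 2 than with TMM factors. The change was called in every fit that left out 1 library (3.04 to 3.37 over 12 fits). The fold was as large in run 2 alone (3.31, Bonferroni-adjusted p = 0.221, edgeR, with 2 libraries a group) and in a fit of all tissues together (3.19, Bonferroni-adjusted p = 0.344, edgeR), and it was not called in either. In edgeR fits without TMM factors, added after the values were seen, the rise was 3.05 ± 0.44 (Bonferroni-adjusted p = 0.0653) and the return -3.46 ± 0.45 (adjusted p = 0.0201), so neither was called. That scaling moved the median bursa gene by -0.21 on the log2 scale at 6 h and by -0.16 from 6 to 24 h.

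Across the 45 pairs of chaperone gene and tissue that could be tested, that was the single call at 6 h, with 9 pairs at an unadjusted p under 0.05 and 2 called by DESeq2. In the bursa 1 of the 8 genes was called higher, where 1.03% of all 7983 genes tested were called higher, and 0 were called lower against 0.125%. From 6 to 24 h the bursa decline of *Hsp68* was again the single call of the 45 (11 at an unadjusted p under 0.05, 2 by DESeq2), and 0.601% of all bursa genes were called lower. Between unmated and 24 h 0 of the 45 pairs were called by edgeR, with 1 at an unadjusted p under 0.05 (*Hsp83* in the oviduct) and 0 by DESeq2. For that interval, genes called higher and lower made up 0.125% and 0% of those tested for bursa, 0.0525% and 0.0131% for spermathecae, 0.0137% and 0% for parovaria and 0% each way elsewhere. From 6 to 24 h the shares called higher were 0.0877% for bursa and 0.0656% for spermathecae and 0% elsewhere, and the shares called lower were 0.0918% for spermathecae, 0.0275% for parovaria and 0.0128% for oviduct and 0% for seminal receptacle and fat body.

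*Hsp83*, the cytosolic Hsp90, followed the same time course in the bursa at a smaller fold. Unmated libraries held 226, 272, 338 and 273 normalized CPM, 6 h libraries 758, 726, 495 and 452, and 24 h libraries 288, 274, 254 and 211. The 6 h range lay above both other ranges, and the unmated and 24 h ranges overlapped. The 6 h difference was 1.12 ± 0.20 on the log2 scale, which did not pass the Bonferroni threshold (edgeR, adjusted p = 0.847; Benjamini-Hochberg-adjusted p = 0.00179). DESeq2 gave 1.15 with a Bonferroni-adjusted p of 5.23e-05, and edgeR without TMM factors 1.02 ± 0.42 with a Benjamini-Hochberg-adjusted p of 0.174. The 6 h to unmated ratio was 2.99 in run 1 and 1.55 in run 2, so its size differed between runs. On CPM without TMM factors the run 2 libraries held 397.9 and 384.3 unmated and 332.9 and 324.6 at 6 h. The direction within run 2 therefore depended on the scaling, and the 6 h libraries did not all lie above the unmated ones on that scale. From 6 to 24 h the difference was -1.25 ± 0.20 (edgeR, Bonferroni-adjusted p = 0.318; Benjamini-Hochberg-adjusted p = 0.00148). Under a Benjamini-Hochberg threshold of 0.01, *Hsp68* and *Hsp83* were both called in the bursa in each interval, where 7.62% of all genes were called higher at 6 h and 4.47% lower from 6 to 24 h.

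On normalized CPM the heat-inducible *Hsp70* copies moved in the same direction in the bursa with a wider spread. The *Hsp70* sum was 22.9, 60.9, 72.6 and 22.6 normalized CPM in unmated libraries, 192.9, 148, 99.7 and 46.2 at 6 h, and 32.5, 39.6, 18.9 and 38.1 at 24 h. The lowest 6 h library lay within the unmated range, and all 6 h libraries lay above all 24 h libraries. The copies differed by 1.33 ± 0.53 (*Hsp70Ba*) to 1.49 ± 0.43 (*Hsp70Aa*) at 6 h, with edgeR Benjamini-Hochberg-adjusted p from 0.0238 to 0.0843, and by -2.01 ± 0.57 (*Hsp70Bb*) to -1.86 ± 0.43 (*Hsp70Ab*) from 6 to 24 h, with adjusted p from 0.0128 to 0.0363. None of these passed the Bonferroni threshold. The ratio of the sum at 6 h to unmated was 4.07 in run 1 and 1.53 in run 2. On CPM without TMM factors the sum in run 2 was 85.5 and 31.9 unmated and 67.0 and 33.2 at 6 h. Both 6 h values of run 2 then lay between the unmated ones, so the rise within run 2 depended on the scaling.

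*Hsc70-4*, the abundant constitutive Hsp70 that serves general protein folding and clathrin uncoating, stayed within a narrow range in the bursa. It measured 1822 to 2051 normalized CPM unmated, 1949 to 2872 at 6 h and 1403 to 1972 at 24 h, and each pair of ranges overlapped. The differences were 0.31 ± 0.18 at 6 h and -0.48 ± 0.18 from 6 to 24 h (edgeR, Benjamini-Hochberg-adjusted p = 0.213 and 0.102).

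Per kilobase of exon, the mean levels in the unmated bursa were 730.2 normalized CPM per kb for *Hsc70-4*, 93.6 for *Hsp83*, 18.95 for the *Hsp70* sum over the mean length of its copies (9.58 to 30.8 over libraries) and 13.5 for *Hsp68* (7.93 to 17.6). The last pair overlapped. At 6 h the means were 914, 205, 51.6 (19.6 to 81.7) and 126 (93.1 to 139.9) in the same order, so every *Hsp68* library then lay above every library of the *Hsp70* sum.

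**Figure D2:**
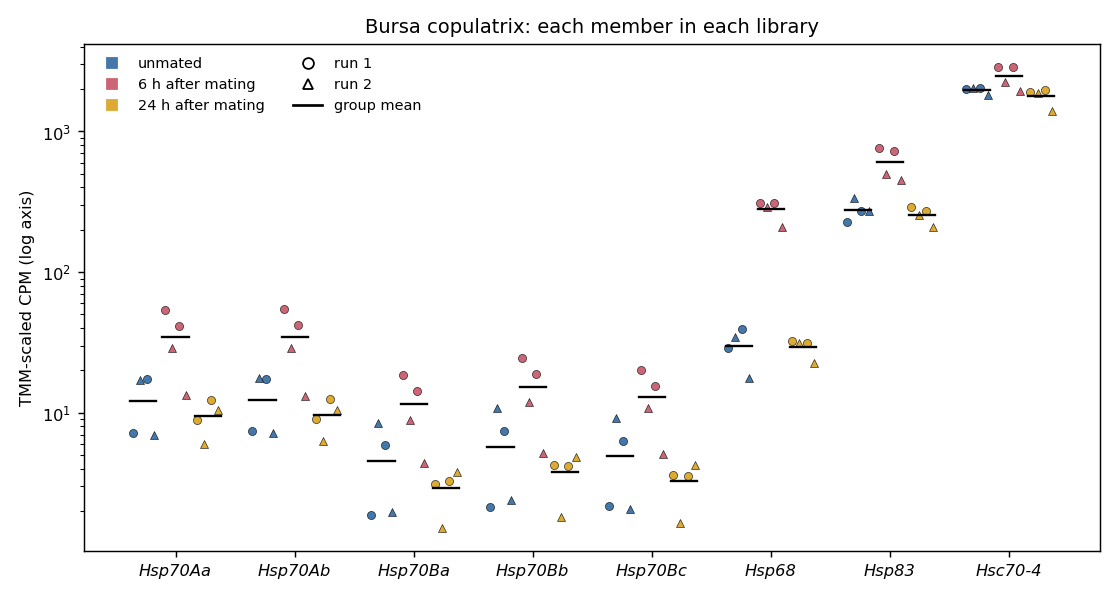
Normalized CPM of each of the 8 genes in the 12 bursa libraries on a log axis, with time after mating in color, sequencing run by marker shape and group means as bars. The 4 *Hsp68* libraries at 6 h (208 to 312) sit apart from the 8 others (17.7 to 39.4), *Hsp83* at 6 h (452 to 758) sits above its other groups, and the *Hsp70* copies overlap between unmated and 6 h.

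Counting groups without overlap on normalized CPM, 2 of the 8 genes (*Hsp68* and *Hsp83*) lay wholly higher at 6 h than unmated in the bursa. That share is to be read against 13.7% of all genes. Between 6 and 24 h, 7 of the 8 lay wholly lower at 24 h, all but *Hsc70-4*, against 9.26% of all genes, and 5 of those 7 were near-identical copies that share reads. The median log2 difference of the 8 genes was 1.39 at 6 h and -1.92 from 6 to 24 h, beside medians over all bursa genes of -0.02 and -0.02.

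Among marker lists of other cell types, those of gut and neurons had bursa ranges at 6 h that lay apart from the unmated ranges, and the other ranges overlapped. Summed gut markers (7 genes, 2 of them at 0 in all 6 h libraries) were 135 to 297 CPM at 6 h and 69.6 to 127 CPM unmated, against 2126 to 2442 CPM in the whole female. Male accessory gland markers (4 genes, 3 at 0) were 1.42 to 9.91 CPM at 6 h and 2.04 to 5.59 CPM unmated, and testis markers (9 genes, 5 at 0 at 6 h) were at most 0.232 CPM at 6 h and at most 7.28 CPM unmated. Neuron markers (4 genes, none at 0 in all 6 h libraries) were 5.11 to 10.7 CPM at 6 h, below every unmated library (12.4 to 19.4 CPM). Haemocyte markers (4 genes) were 69.0 to 375.5 CPM at 6 h and 269.6 to 498 CPM unmated, fat body markers (7 genes) 2783 to 10820 and 5625 to 9676 CPM, and spermathecal secretory cell markers (2 genes) 208 to 1001 and 165 to 917 CPM. Muscle markers (8 genes) were 13300 to 23990 CPM at 6 h and 16790 to 25160 CPM unmated. The mitochondrial transcript *mt:lrRNA* took 9.97 to 37.5% of counts at 6 h and 19.9 to 24.7% unmated. Its 6 h shares were split by run, at 16.8 and 9.97% in run 1 and 37.5 and 35.7% in run 2. The part of these marker and *mt:lrRNA* values in the bursa changes was not tested.

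In the oviduct, the duct that carries eggs from the ovaries, no chaperone gene was called, and *Hsp68* and *Hsp83* had the largest differences relative to their errors. *Hsp68* measured 12.1, 11.6 and 7.77 normalized CPM unmated, 26.8 and 20.8 at 6 h and 10.4, 5.78 and 5.96 at 24 h. *Hsp83* measured 424, 303 and 339 unmated, 513 and 449 at 6 h and 277, 161 and 173 at 24 h. For both genes the 6 h libraries lay above all others. The *Hsp68* differences were 1.20 ± 0.30 at 6 h and -1.74 ± 0.30 from 6 to 24 h (edgeR, Benjamini-Hochberg-adjusted p = 0.0898 and 0.0442). The *Hsp83* differences were 0.46 ± 0.27 and -1.29 ± 0.26 (adjusted p = 0.322 and 0.0643).

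Groups without overlap were common in the small oviduct groups. At 6 h 2 of the 8 genes lay wholly higher (*Hsp68* and *Hsp83*, against 29.2% of all genes) and 2 wholly lower (*Hsp70Bb* and *Hsp70Bc*, against 32.7%), and from 6 to 24 h 2 lay wholly lower (*Hsp68* and *Hsp83*, against 20% of all genes). The *Hsp70* sum was 28.3, 89.6 and 18.3 unmated and 26.8 and 8.85 at 6 h. The Bonferroni threshold was passed by 0.0256% of all oviduct genes as higher at 6 h, 0% as lower at 6 h and 0.0128% as lower from 6 to 24 h. The 2 oviduct libraries at 6 h were both from run 2 and held 9.61 and 741 CPM of eggshell markers, against 2.27 to 6.99 CPM in unmated oviduct. The part of that difference in these results was not tested.

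The seminal receptacle and the spermathecae, the sperm storage organs, had no called chaperone gene. In the seminal receptacle *Hsp68* measured 24.97, 26.6 and 7.59 normalized CPM unmated, 39.7, 33.2, 27.9 and 21.8 at 6 h and 10.4, 5.34 and 16.5 at 24 h. The 6 h and 24 h groups did not overlap (-1.48 ± 0.48, edgeR, Benjamini-Hochberg-adjusted p = 0.35), as was true of *Hsc70-4* (-0.45 ± 0.22, adjusted p = 0.642), 2 of 8 genes against 5.1% of all genes. The share of seminal receptacle genes called after mating was 0.0246% higher and 0% lower at 6 h, and 0% in either direction from 6 to 24 h. The *Hsp70* sum differed by -0.18 on the log2 scale at 6 h and by -0.93 from 6 to 24 h, neither of them called. At 6 h its run 1 mean in that organ was 8.76 times its run 2 mean.

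In the spermathecae the ratios of 6 h to unmated levels differed between the sequencing runs. *Hsp83* was 448 and 574 (run 1) and 662 and 487 (run 2) normalized CPM unmated, and 638 and 403 (run 1) and 172 and 164 (run 2) at 6 h. The run 2 libraries at 6 h lay below every other spermathecae library of the gene, and the 6 h to unmated ratio was 1.02 in run 1 and 0.293 in run 2. The *Hsp70* sum was 63.4 and 133.5 (run 1) and 547 and 33.0 (run 2) unmated, and 555 and 243 (run 1) and 22.2 and 42.4 (run 2) at 6 h, with ratios of 4.06 and 0.112. *Hsp68* gave ratios of 4.13 and 0.235. The run 2 ratios of these inducible genes rested on 1 unmated library (replicate 3, *Hsp70* sum 547 and *Hsp68* 62.4), and without it they were 0.98 and 1.54, while that of *Hsp83* was 0.345. *Hsc70-4* gave 0.911 in run 1 and 0.801 in run 2. Pooled over runs, the log2 differences at 6 h were -0.68 ± 0.39 for *Hsp83*, 0.37 ± 0.86 for *Hsp68* and from -0.13 ± 1.01 to 0.27 ± 1.04 for the *Hsp70* copies, none of them called, where 0.157% of all spermathecae genes were called higher and 0.131% lower.

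The parovaria, paired accessory glands, and the fat body likewise had no called member after mating. In the parovaria the 6 h to unmated ratio of the *Hsp70* sum was 2.55 in run 1 and 0.0987 in run 2, and that of *Hsp68* was 3.61 and 0.349. The run 2 ratios again rested on unmated replicate 3 (675 and 68.4), and without that library they were 1.09 and 2.66. *Hsp83* was 316 to 484 normalized CPM unmated and 281 to 446 at 6 h in that gland, with overlapping ranges. In the fat body *Hsp83* measured 310, 365, 229 and 267 unmated and 701, 377 and 342 at 6 h (0.77 ± 0.30, edgeR, Benjamini-Hochberg-adjusted p = 0.203). Without the library at 701 the fat body difference was 0.33, the lowest of the 9 fits that left out 1 library. Called genes at 6 h made up 0.0687% (higher) and 0% (lower) of all parovaria genes and 0.0176% and 0% of all fat body genes.

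**Figure D3:**
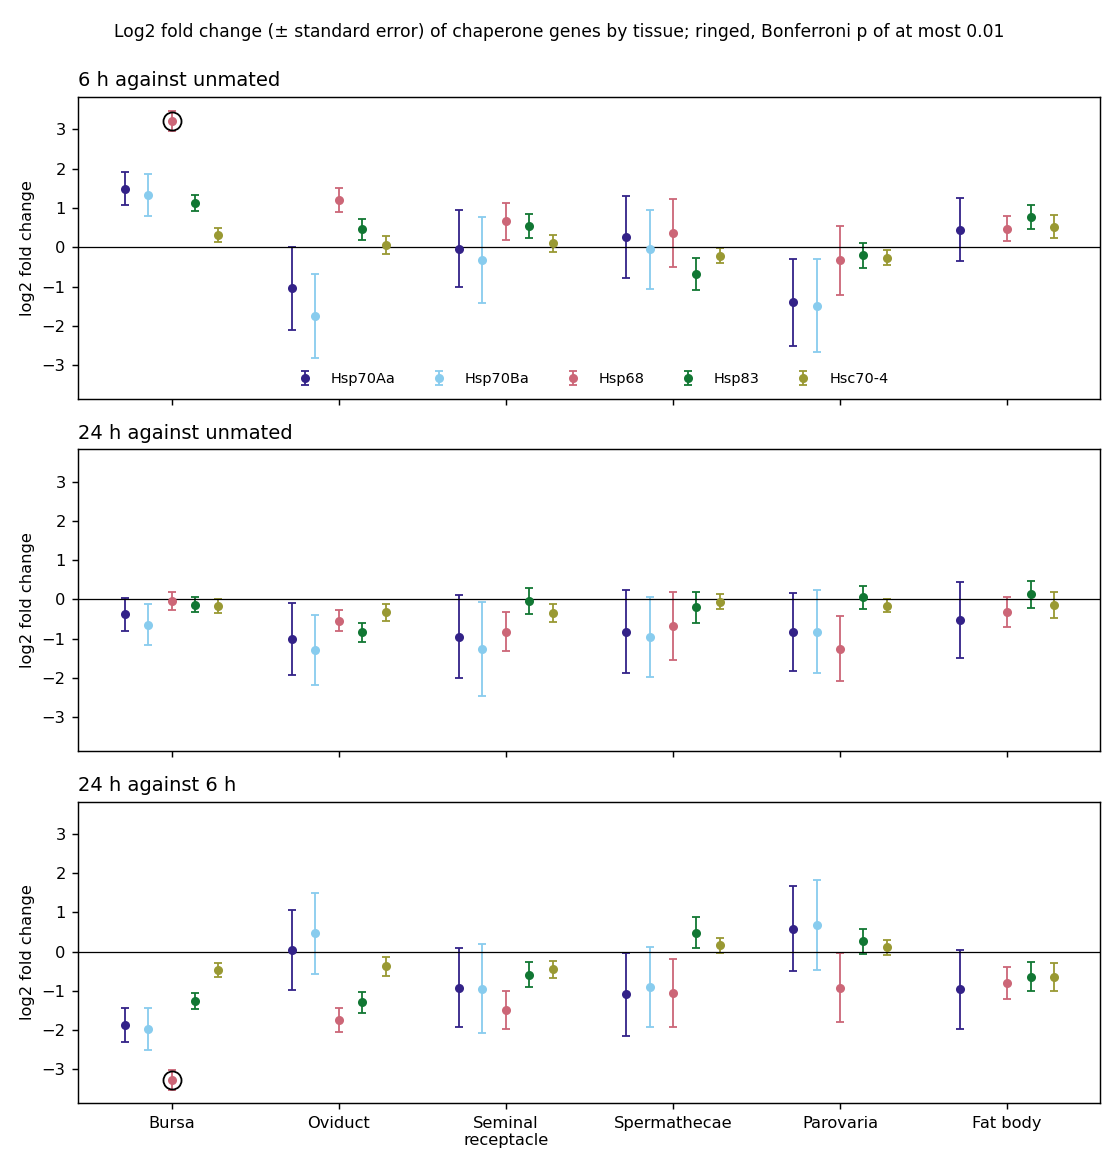
Log2 fold change from edgeR, with its standard error as bars, for *Hsp70Aa*, *Hsp70Ba*, *Hsp68*, *Hsp83* and *Hsc70-4* in each tissue for the 3 pairs of time points, with called changes ringed. The bursa values of *Hsp68* (3.22 and -3.27) are the ringed points, and the *Hsp70* copies have wide bars in other tissues (0.27 ± 1.04 for *Hsp70Aa* in the spermathecae at 6 h).

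Whether the 6 h response of a gene differed among tissues was tested as a tissue-by-time interaction over the genes expressed in all 6 tissues. Of the 5 chaperone genes in that test 0 were called (edgeR, Bonferroni threshold; DESeq2 also 0), against 1.89% of 5346 genes, with 2 at an unadjusted p under 0.05. These were *Hsp83* (edgeR, Benjamini-Hochberg-adjusted p = 0.0468) and *Hsp68* (adjusted p = 0.154). In pairwise comparisons chosen after the values were seen, the *Hsp68* rise in the bursa exceeded that in the other tissues on the log2 scale by 3.55 ± 1.03 for parovaria, 2.79 ± 1.05 for spermathecae, 2.73 ± 0.44 for fat body, 2.63 ± 0.51 for seminal receptacle and 2.02 ± 0.41 for oviduct. None passed the Bonferroni threshold, which was passed by 0.345%, 0.601%, 0.383%, 0.0521% and 0% of all genes in that order. The parovaria and spermathecae comparisons each included unmated replicate 3 of run 2, the highest *Hsp68* library of its group. With it the run 2 ratio of 6 h to unmated *Hsp68* was 0.349 in the parovaria and 0.235 in the spermathecae. Without it the ratios were 2.66 and 1.54, and the pairwise differences were not refitted. Under Benjamini-Hochberg adjustment over all genes (edgeR), the differences from the fat body (adjusted p = 0.00178, where 10.2% of genes had an adjusted p of at most 0.05) and from the seminal receptacle (adjusted p = 0.0437, 0.352% of genes) fell below 0.05, and those from the oviduct, spermathecae and parovaria had adjusted p of 0.131, 0.123 and 0.0692 (0.0664% of genes at most 0.05 for the oviduct). For *Hsp83* the bursa response exceeded that of the spermathecae by 1.76 ± 0.49 (adjusted p = 0.0373, 8.05% of genes) and that of the parovaria by 1.297 ± 0.306 (adjusted p = 0.0251, 4.56% of genes). Its excess over the oviduct, seminal receptacle and fat body was 0.66 ± 0.32, 0.65 ± 0.34 and 0.35 ± 0.39. Those comparisons had edgeR Benjamini-Hochberg-adjusted p of 0.623, 0.772 and 0.575. The spermathecae comparison included run 2, where the *Hsp83* ratio of 6 h to unmated was 0.293, lower than in run 1.

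Among unmated tissues *Hsc70-4* was the member that differed by the F test over 6 tissues (edgeR, Bonferroni-adjusted p = 5.28e-05), where 61.2% of all 8545 genes did. Its mean was 3104 normalized CPM for fat body (range 2764 to 3648), 1983 for bursa (range 1822 to 2051), 1948 for oviduct (range 1797 to 2066), 1805 for seminal receptacle (range 1708 to 1968), 1520 for spermathecae (range 1325 to 1829) and 1206 for parovaria (range 1150 to 1324). Fat body exceeded bursa by 0.78 ± 0.12 on the log2 scale (edgeR, Benjamini-Hochberg-adjusted p = 7.71e-06, where 81% of genes differed in either direction), and no other pair of neighbors in that order differed (adjusted p from 0.0905 to 0.845). In a fit without TMM factors the F test gave a Bonferroni-adjusted p of 0.0122 (edgeR) and was not called. The first place of the fat body depended on scaling, since on CPM without TMM factors oviduct (3073), seminal receptacle (2687) and bursa (2663) came first, and fat body (1450) lay between spermathecae (1569) and parovaria (1016).

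The other members did not pass that threshold. *Hsp83* averaged 543 for spermathecae, 392 for parovaria, 355 for oviduct, 297 for seminal receptacle, 293 for fat body and 277 for bursa (edgeR F test, Benjamini-Hochberg-adjusted p = 0.000241), with no neighbors differing. On CPM without TMM factors the oviduct (565) and spermathecae (558) led that order. *Hsp68* averaged 30.1 for bursa, 23.4 for spermathecae, 22.5 for parovaria, 19.7 for seminal receptacle, 13.9 for fat body and 10.5 for oviduct (edgeR, Benjamini-Hochberg-adjusted p = 0.546). The *Hsp70* sum averaged 209.7 for parovaria, 194 for spermathecae, 118 for seminal receptacle, 45.4 for oviduct, 44.7 for bursa and 19.2 for fat body (adjusted p = 0.0233). No neighbors differed in either order.

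The high means of the *Hsp70* sum and *Hsp68* in both glands rested on 1 library each. In unmated parovaria the *Hsp70* sum was 31.9, 99.6, 675 and 32.1, and *Hsp68* was 5.35, 11.3, 68.4 and 4.81. In unmated spermathecae they were 63.4, 133.5, 547 and 33.0, and 6.11, 19.8, 62.4 and 5.13. In each gland the third of the 4 values came from replicate 3 of run 2, and those libraries were also the highest of their groups for the small heat shock genes *Hsp22*, *Hsp23*, *Hsp26* and *Hsp27*. *Hsp26*, a small heat shock protein that holds unfolded proteins, was 188.8 in that parovaria library and 8.82 to 20.9 in the others. *l(2)efl*, an alpha-crystallin relative, was 19.0 there and 13.7 to 17.5 in the others, and in spermathecae replicate 3 of run 2 it was 15.1, below the highest of that group (18.1). *Hsp83* was 484 there against 316 to 414 and *Hsc70-4* was 1195 against 1150 to 1324, so the constitutive member did not stand apart.

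Levels were more often higher in run 1 than in run 2. Within the 16 groups that had both runs, the run 1 mean of *Hsc70-4* was above the run 2 mean in 16 (ratio 1.03 to 1.70, median 1.22), that of *Hsp83* in 13 (median 1.51), of *Hsp68* in 13 (median 1.35) and of the *Hsp70* sum in 11 (ratio 0.186 to 12.4, median 1.64). All whole female libraries were from run 2.

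Relative to the whole female, *Hsp68* was higher and *Hsp83* lower in every tissue, without passing the threshold of a Bonferroni-adjusted p of 0.001 and a log2 fold change of 2. *Hsp68* was 1.50 and 2.27 normalized CPM in the whole female libraries and at least 4.81 in every unmated tissue library. Its log2 differences were 4.05 ± 0.43 (bursa), 3.71 ± 1.18 (spermathecae), 3.66 ± 1.296 (parovaria), 3.40 ± 0.62 (seminal receptacle), 3.10 ± 0.44 (fat body) and 2.49 ± 0.39 (oviduct). *Hsp83* was 940 and 767 in the whole female and at most 662 in any unmated tissue library, with differences from -0.57 ± 0.21 (spermathecae) to -1.57 ± 0.22 (bursa).

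By the stated threshold 0 of 48 pairs of gene and tissue were called against the whole female by edgeR, with 29 at an unadjusted p under 0.05 and 4 called by DESeq2, namely *Hsp68* in the bursa, oviduct, seminal receptacle and fat body. The shares of all genes called higher and lower by edgeR were 0.897% and 1.45% for bursa, 0% and 0% for oviduct, 0.0671% and 0.134% for seminal receptacle, 0.643% and 0.456% for spermathecae, 0.761% and 0.925% for parovaria and 2.44% and 1.42% for fat body. With a Benjamini-Hochberg threshold of 0.001, *Hsp68* was called higher for bursa (edgeR, adjusted p = 8.27e-05, where 17.2% of all genes were) and fat body (adjusted p = 0.000143, 17.2% of all genes). *Hsp68* lay wholly above the whole female in 6 of 6 tissues, where the shares of all genes doing so were 35.9% for bursa, 37.3% for oviduct, 37.1% for seminal receptacle, 33.7% for spermathecae, 34.8% for parovaria and 29.1% for fat body. *Hsp83* lay wholly below it in 6 of 6, where the shares were 42.7%, 43.5%, 41.2%, 42.1%, 44.7% and 50.3% in that order. Without TMM factors the median gene moved against the whole female by -2.65 on the log2 scale for fat body, -1.66 for parovaria, -1.37 for spermathecae, -0.96 for bursa, -0.78 for seminal receptacle and -0.68 for oviduct. On that scale *Hsp68* was 4.38 and 4.87 CPM in the whole female, and its libraries of fat body (4.30 to 11.1 CPM) and parovaria (3.38 to 48.5 CPM) overlapped them, with differences of 0.49 ± 0.54 and 1.88 ± 1.02.

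In each FRT tissue the *B* copies of *Hsp70* had larger differences from the whole female than the *A* copies. Single-copy values are uncertain because the copies share reads. The *Hsp70* sum differed by 2.31 ± 0.76 for seminal receptacle, 3.10 ± 1.18 for spermathecae and 3.22 ± 1.43 for parovaria. Among the *B* copies the estimates were largest for *Hsp70Bb*. The *Hsp70Bb* differences were 3.55 ± 0.95 for seminal receptacle, 4.12 ± 1.32 for spermathecae and 4.33 ± 1.58 for parovaria, and those of *Hsp70Aa* were 1.70 ± 0.65, 2.67 ± 1.12 and 2.75 ± 1.34, with no test of the difference between copies. The parovaria value included unmated replicate 3 of run 2 (*Hsp70Bb* 94.2 normalized CPM, next highest 11.9). Over fits that left out 1 library, the *Hsp70Bb* difference ran from 2.67 to 4.48 for spermathecae and from 2.21 to 4.71 for parovaria. *Hsc70-4* was 1589 and 1600 normalized CPM in the whole female. It was 1.17 ± 0.29 higher on the log2 scale in the fat body (edgeR, Benjamini-Hochberg-adjusted p = 0.00468), and its differences in the FRT tissues ran from -0.33 ± 0.16 (parovaria) to 0.37 ± 0.20 (bursa). The direction depended on the scaling. Without TMM factors *Hsc70-4* was 3428 and 4636 CPM in the whole female and averaged 1450 CPM in fat body, a difference of -1.48 ± 0.32, and it was also lower in each FRT tissue (from -0.39 ± 0.19 for oviduct to -1.99 ± 0.26 for parovaria).

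**Figure D4:**
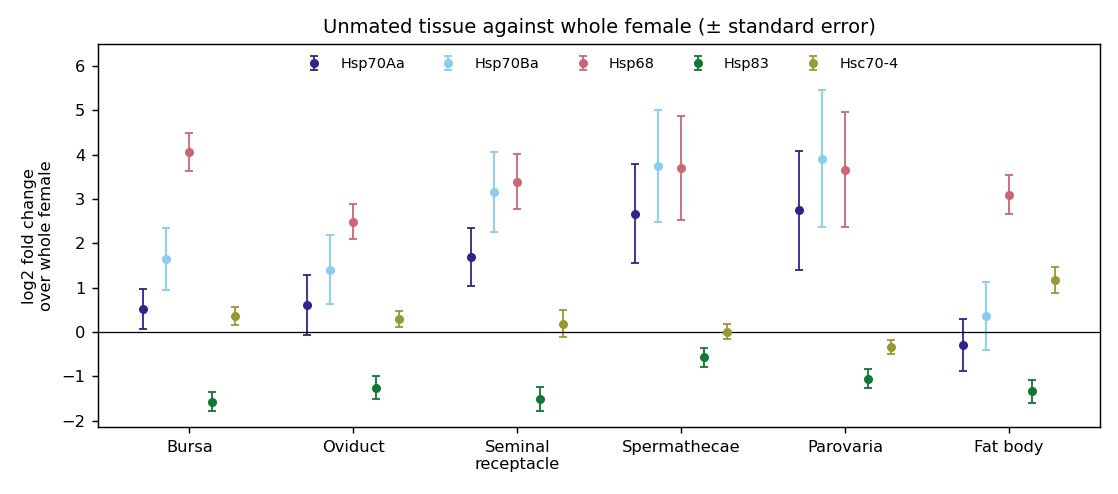
Log2 fold change from edgeR, with its standard error as bars, of *Hsp70Aa*, *Hsp70Ba*, *Hsp68*, *Hsp83* and *Hsc70-4* in each unmated tissue against the 2 whole female libraries. *Hsp68* lies above 0 in all 6 tissues (2.49 to 4.05) and *Hsp83* below 0 in all 6 (-0.57 to -1.57).

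The genes that work with these chaperones were counted in lists, of which each result is given here by the Bonferroni threshold. Of 4 other Hsp70 family genes found in the table (*Hsc70-1*, *Hsc70-2*, the endoplasmic reticulum *Hsc70-3* and the mitochondrial *Hsc70-5*), of 12 Hsp70 co-chaperones and of 10 Hsp90 family genes and co-chaperones, 0 were called by edgeR in any tissue after mating. In the bursa at 6 h their median log2 differences were 0.58, 0.16 and 0.59, beside -0.02 for all genes. By a Benjamini-Hochberg threshold of 0.01, 1 Hsp70 co-chaperone and 1 gene of the Hsp90 list were called higher in that comparison, where 7.62% of all genes were.

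The cytosolic chaperonin, a ring complex that folds actin and tubulin, was the chaperone list with the most calls. In the bursa at 6 h 6 of the 10 chaperonin and Hsp60 genes were called higher and 0 lower (median 1.71), where 1.03% of all genes were called higher, with *CCT2* (1.94 ± 0.18), *CCT5* (1.91 ± 0.21) and *CCT8* (1.75 ± 0.17) the largest by edgeR. From 6 to 24 h 0 were called by Bonferroni and 8 by a Benjamini-Hochberg threshold of 0.01, all lower (median -1.34), where 4.47% of all genes were. Without TMM factors 0 of the 10 were called at 6 h, where 0.2% of all genes were called higher, and all 10 still had differences above 0 (median 1.52). Of 7 small heat shock genes and regulators tested in the bursa, 1 was called higher, *l(2)efl* (2.45 ± 0.21), against the same 1.03%. *l(2)efl* was also called higher at 6 h in the spermathecae (2.64 ± 0.20, against 0.157% of all genes) and parovaria (3.22 ± 0.25, against 0.0687%). From 6 to 24 h 1 gene of that list was called lower in the spermathecae (against 0.0918% of all genes) and 1 in the parovaria (against 0.0275%). Without TMM factors none of that list was called in the bursa, spermathecae or parovaria. In the seminal receptacle 1 was then called higher at 6 h, against 0.0491% of all genes. With TMM factors that tissue had 0 calls of the list at 6 h by Bonferroni and 1 by a Benjamini-Hochberg threshold of 0.01. *l(2)efl* there was 111, 209 and 127 normalized CPM unmated and 721 to 1147 at 6 h. In the spermathecae and parovaria the *Hsp68* differences at 6 h were 0.37 ± 0.86 and -0.33 ± 0.88, with unmated replicate 3 of run 2 of each gland included. Without that library the run 2 ratios of 6 h to unmated *Hsp68* were 1.54 and 2.66.

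Over the means of the 18 combinations of tissue and time, the genes with the pattern most like the *Hsp70* sum among 8784 genes were *Uba1* (r = 0.907), the ubiquitin-activating enzyme, and *CG5274* (r = 0.891), followed by the small heat shock gene *Hsp23* (r = 0.886). Those most like *Hsp68* were *Edg91* (r = 0.936), *Jhedup* (r = 0.908) and *CG7294* (r = 0.902). Those most like *Hsp83* were *Pus10* (r = 0.821) and *Pus7* (r = 0.812), which encode pseudouridine synthases, and FBgn0284251 (r = 0.80). Those most like *Hsc70-4* were the mitochondrial ribosomal protein gene *mRpS35* (r = 0.924), *CG6565* (r = 0.923) and *mRpL12* (r = 0.922). With 2 in place of 0.5 added before taking logs, *mRpL12* (r = 0.924) came first for *Hsc70-4* and *ECSIT* (r = 0.922) took the place of *CG6565*, and for *Hsp68* *CG13177* (r = 0.92) took the place of *CG7294*. Among the members, r was 0.307 between the *Hsp70* sum and *Hsp68*, 0.465 between *Hsp68* and *Hsp83* and -0.56 between the *Hsp70* sum and *Hsc70-4*. These values are descriptions of log levels, in which the means share libraries, depth and run.

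The run 2 libraries carry a pattern of the inducible genes that crosses tissues, by the number in the library name, in a comparison that was not planned. Among unmated libraries the *Hsp70* sum was higher in the library of the lower number in 6 of 6 tissues, by 2.01 times in the fat body to 21.2 times in the parovaria. Of 9545 genes, 1.42% were higher on that side in 6 of 6 and 3.72% on the other side. *Hsp68* was also higher in the unmated library of the lower number in 6 of 6 tissues (1.06 to 14.4 times). At 24 h the *Hsp70* sum was higher in the library of the higher number in 6 of 6 tissues, with ratios of lower to higher number from 0.0508 in the spermathecae to 0.368 in the bursa. Of all genes, 4.79% were higher on that side in 6 of 6 and 1.61% on the other. For the *Hsp70* sum at 6 h the sides were divided 3 to 3. At 6 h *Hsp68* was higher in the library of the lower number in 6 of 6 tissues (1.24 to 1.63 times), where 6.8% of genes were and 2.59% were higher on the other side. At 24 h the library of the lower number was the higher for *Hsp68* in 2 of 6 tissues. For *Hsp83* it was the higher in 3 of 6 tissues among unmated libraries and in 1 of 6 at 24 h. The numbers used are those of the deposited column names. Sample labels give other numbers for the unmated seminal receptacle, for the seminal receptacle and fat body at 24 h, and for the oviduct, parovaria and fat body at 6 h. In those groups it is not known which library has the lower label number. The labels do not say whether libraries of 1 number in different tissues came from the same females.

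**Figure D5:**
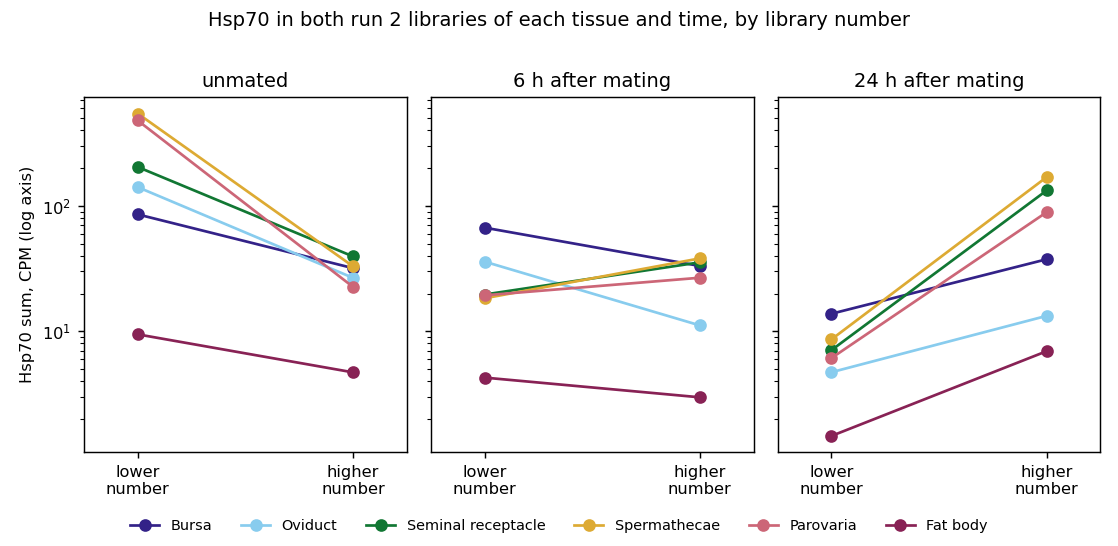
CPM of the *Hsp70* sum on a log axis in the 2 run 2 libraries of each tissue at each time, joined by a line from the lower to the higher library number. All 6 unmated lines fall (544 to 32.9 in the spermathecae) and all 6 lines at 24 h rise (8.61 to 169.4 in the spermathecae), while those at 6 h go both ways.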

How the data were processed

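RNA from pooled tissue was sequenced as single-end reads. Per the study's methods and the submitters' processing notes, the authors aligned reads with HISAT2 2.1.0 to the FlyBase reference (Release 6) and tabulated gene counts with StringTie. How reads that fit several loci were divided is not given in the sources used here. The deposited table holds raw counts, whole numbers per gene, for 64 libraries, and 14 of its columns could be matched to a group but not to a single sample. No column was left unmatched (0).

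Counts were read as deposited. Library sizes were scaled with TMM factors (0.321 to 2.917), and genes over 2 CPM in 2 or more libraries of any group were tested with edgeR 4.0.16 (quasi-likelihood F test, R 4.3.3, limma 3.58.1), each tissue separately. The study names edgeR by tissue with TMM factors, which it applied against batch effects; the quasi-likelihood test and the absence of pairing and run terms were chosen here. Thresholds were a Bonferroni-adjusted p of 0.01 after mating, among tissues and for the interaction, 0.001 with an absolute log2 fold change of 2 against the whole female, and a Benjamini-Hochberg-adjusted p of 0.05 for neighboring tissues. The test was also run on simulated counts that had the same dispersion for every gene, no run effect and no outlying library. That simulation does not show how the test performs on genes as variable as the *Hsp70* copies. Levels for likeness of pattern used log2(CPM + 0.5), also with 2 added. DESeq2 1.42.0, upper-quartile factors, no expression filter, summed *Hsp70* copies, run as a covariate, run 2 alone, 1 fit of all tissues, a replicate block and leaving out each library were tried as alternatives. Fits without TMM factors and run 2 ratios without 1 unmated gland library were added after the values were seen. The comparison of run 2 libraries by number was also not planned. Gene identities and coordinates come from an annotation of the Release 6 assembly, in which 17624 of the 17752 identifiers (99.28%) were found. Figures and tables used Python 3.11.15, pandas 2.3.3 and matplotlib 3.10.9.

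The 8 members were counted in every comparison, but outside the bursa the values after mating are given for only some of them. The text also names *Hsp70Bbb* as a copy that can share their reads. It names at most 3 called genes per list of other chaperones, those with the largest fold changes. The 3 genes with the highest correlation of pattern with each of *Hsp68*, *Hsp83*, *Hsc70-4* and the *Hsp70* sum are also named. Small heat shock genes named beside single libraries were chosen after their values were seen. The members and lists were chosen with earlier results of these data known. No 2 libraries held identical counts. Same-numbered libraries did not deviate together in every case, so numbers were not used as pairs. The total count limits precision, and low *Hsp70* counts in the fat body (36 in 1 library) carry the most counting error.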

Additional observations from a re-analysis of the deposited data

Results flagged for a closer look

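Of 90 sets of 4 libraries of a gene and group, 10 (11.1%) had a library whose distance from the nearest other exceeded Dixon's 95% limit for its range, where chance gives about 1 in 20, and the sets are not independent because the *Hsp70* copies share reads. Of the 10, 7 were the same library, unmated parovaria replicate 3 of run 2. It held 675.1 normalized CPM of the *Hsp70* sum (next highest 99.6), 176.7 of *Hsp70Aa* (29.1), 180.4 of *Hsp70Ab*, 70.37 of *Hsp70Ba*, 94.17 of *Hsp70Bb*, 76.06 of *Hsp70Bc* and 68.42 of *Hsp68* (11.3). In that library *Hsp22* was 66.6 (next highest 8.72), *Hsp23* 52.4 (4.35) and *Hsp27* 84.3 (11.3), and *stv*, an Hsp70 co-chaperone, was 228 (198.1). The unmated spermathecae library of the same run and number had the highest value of its group for the same genes, with *Hsp22* at 53.0 (9.33) and *Hsp27* at 84.0 (16.4). The part of handling or sequencing run in these values was not tested.

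The other 3 were low libraries of the bursa. Bursa replicate 4 of run 2 at 24 h was lowest for *Hsc70-4* (1403 normalized CPM, the next lowest 1889) and for *Hsp68* (22.68, the next lowest 31.3). Among unmated bursa libraries the lowest *Hsc70-4* value was 1822, with the next at 2018.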

How the results depend on the processing

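The calls after mating depended on the threshold, the tool and the samples fitted. At 6 h, and from 6 to 24 h, the number of called members was 1, and it became 2 with Benjamini-Hochberg adjustment, 2 with DESeq2 (*Hsp68* and *Hsp83* in the bursa in each case), 0 in run 2 alone, 0 in 1 fit of all tissues and 0 without TMM factors. Against the whole female it went from 0 to 2 with Benjamini-Hochberg adjustment and to 4 with DESeq2. Among unmated tissues it went from 1 to 2 with either of these and to 0 in run 2 alone or without TMM factors, and for the difference of the 6 h response among tissues it went from 0 to 1 (*Hsp83*) in run 2 alone. Cause was not tested. Leaving out each library gave 1 to 1 calls at 6 h and from 6 to 24 h and 0 to 0 at 24 h (62 fits each), 0 to 0 against the whole female (24 fits), 1 to 1 among unmated tissues (22 fits) and 0 to 0 for the interaction (42 fits). The remaining alternatives, upper-quartile factors, no expression filter, summed copies and run as a covariate, changed none of these counts beyond 1.5 times, and, of the fold changes with an unadjusted p under 0.05, 1 reversed direction, that of *Hsc70-4* in the fat body against the whole female, which was 1.17 with TMM factors and -1.48 without them. With the replicate number as a block, over libraries whose numbers the labels give, the counts were 1, 0 and 1 after mating, 1 among unmated tissues and 0 for the interaction, as without the block. Of 33 same-numbered pairs 20 had a correlation of deviations above 0.1 (range -0.24 to 0.775), so the block is given here only. Low counts limit the *Hsp70* copies in the fat body, and groups of 2 libraries limit whole female, 24 h fat body and 6 h oviduct.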
